A study of Mus musculus with 12 samples.

Results

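The 10 immediate early genes Fos, Fosb, Jun, Junb, Egr1, Atf3, Ier2, Ier3, Dusp1 and Myc were read from an expression array data set of mouse myocardium. They were chosen by gene symbol, with the probe set of highest mean kept for each gene, and all 10 were found, with 1 probe set each, among 19505 measured genes. The study asked how angiotensin IV, a fragment of angiotensin II, acts on diabetic heart disease. It held 12 arrays, 1 per mouse, in 3 groups of 4.

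NC mice had been given intraperitoneal vehicle for 5 days. DM mice had been injected for 5 days with streptozotocin, which destroys the pancreatic cells that make insulin, and those with a fasting blood glucose of 16.7 mM or more after 2 weeks were used. DM_AngIV mice had the same injections and then received a high dose of angiotensin IV, 2.88 mg/kg/day, by infusion between weeks 8 and 24. No group without diabetes received angiotensin IV among these arrays, so its effect on normal hearts was not analysed here. Tissue of all 3 groups was labelled as 6 months old, and the labels name no infusion for NC or DM. The sources used here give neither strain nor sex.

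Immediate early genes are switched on within minutes of a stimulus, without new protein synthesis, when kinases act on factors already bound at their promoters. Fos, Fosb, Jun, Junb and Atf3 encode basic leucine zipper proteins that pair with each other to form AP-1 and related dimers, while Egr1 and Myc encode transcription factors of other families. Dusp1 encodes a phosphatase that switches off the MAP kinases that induce these genes, and so acts as their feedback brake. In heart muscle the family is known to respond to stretch, ischaemia, hormones of the angiotensin system and handling of the tissue.

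The values are log2 expression values from robust multi-array average (RMA). Background was set at the 95th percentile of 246 reporter control probe sets, which was 4.96. By that measure 8 of the 10 genes were above background on at least 1 array, and Fos and Ier2 on none. With a stricter background from 23 antigenomic probe sets, at 6.19, 5 of the 10 were above it on at least 1 array, namely Jun, Junb, Egr1, Ier3 and Dusp1. Fosb, Atf3 and Myc lay between both limits at their highest. Array medians lay between 4.12 and 4.19 and between 42.8% and 43.3% of genes were above 4.96, so the arrays were alike in overall level. The tissue carried its defining markers: the mean of the 10 cardiomyocyte markers lay between 11.06 and 11.24 on all arrays.

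The 250 bases before the transcription start are shown for the genes that passed the test below, Dusp1 and Ier3, and for Fos, the classic member of the family. They are RefSeq sequences of build GRCm38.p6, written 5′ to 3′ on the gene's strand. Capitals mark matches to the cAMP response element TGACGTCA, its core TGACG on either strand, and the TATA box TATAAA. Dusp1 lies on the minus strand (chr17:26508473-26508722), Ier3 on the plus strand (chr17:35821463-35821712) and Fos on the plus strand (chr12:85473640-85473889).
Dusp1: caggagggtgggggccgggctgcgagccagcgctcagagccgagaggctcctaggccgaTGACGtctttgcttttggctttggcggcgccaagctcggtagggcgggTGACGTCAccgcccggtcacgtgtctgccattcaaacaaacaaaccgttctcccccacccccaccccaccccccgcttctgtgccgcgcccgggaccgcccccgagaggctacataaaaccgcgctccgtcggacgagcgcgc
Ier3: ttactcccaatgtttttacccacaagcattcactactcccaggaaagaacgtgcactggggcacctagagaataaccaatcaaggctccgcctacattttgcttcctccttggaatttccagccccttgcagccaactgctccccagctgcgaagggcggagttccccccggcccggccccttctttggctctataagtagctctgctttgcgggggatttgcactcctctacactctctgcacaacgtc
Fos: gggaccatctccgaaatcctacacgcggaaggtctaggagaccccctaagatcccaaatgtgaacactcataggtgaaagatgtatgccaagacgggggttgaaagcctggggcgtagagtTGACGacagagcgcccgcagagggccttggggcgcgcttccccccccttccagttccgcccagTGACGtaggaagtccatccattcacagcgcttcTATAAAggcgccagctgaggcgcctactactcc

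The complete cAMP response element stood in the Dusp1 window, at bases -143 to -136 from the start, and in none of the other 6 promoter windows found for the members. In windows of 300 bases, which run 50 bases past the start, 1.79% of all 32851 promoters in the table hold that motif. The core TGACG, which the complete element contains, was found in 5 of the 7 windows, those of Atf3, Fosb, Junb, Fos and Dusp1, and in 20.8% of all promoters. The CArG box, the AP-1 site TGANTCA and the Ets site CCGGAAGT, searched on both strands, matched none of the 7 windows and 1.63%, 7.81% and 3.89% of all promoters. The Ier3 window held none of the motifs searched. These matches describe letters and say nothing of binding.

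The members did not move as a block. In treated diabetic hearts against control hearts, DM_AngIV against NC, Dusp1 fell and Ier3 rose past the threshold, Egr1 lay below the controls on all 4 arrays without passing it, Myc was above background on 3 of 4 arrays and on 0 of 4 control arrays, and the AP-1 genes Jun, Junb and Fosb had differences of at most 0.12 in size, none of which passed. In the other comparisons, DM with NC and DM_AngIV with DM, 0 members passed, where 0.0154% and 0.00% of all genes did. In DM_AngIV against NC, 1.02% of all genes passed and 9.83% did not overlap between the groups. Calls used an adjusted p (Benjamini-Hochberg, across the 19505 genes) under 0.05 from a single limma fit of the 12 arrays. The 3 comparisons share arrays and are not independent of each other. In bulk tissue, fewer cells of a type and less RNA per cell cannot be told apart.

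**Figure D1:**
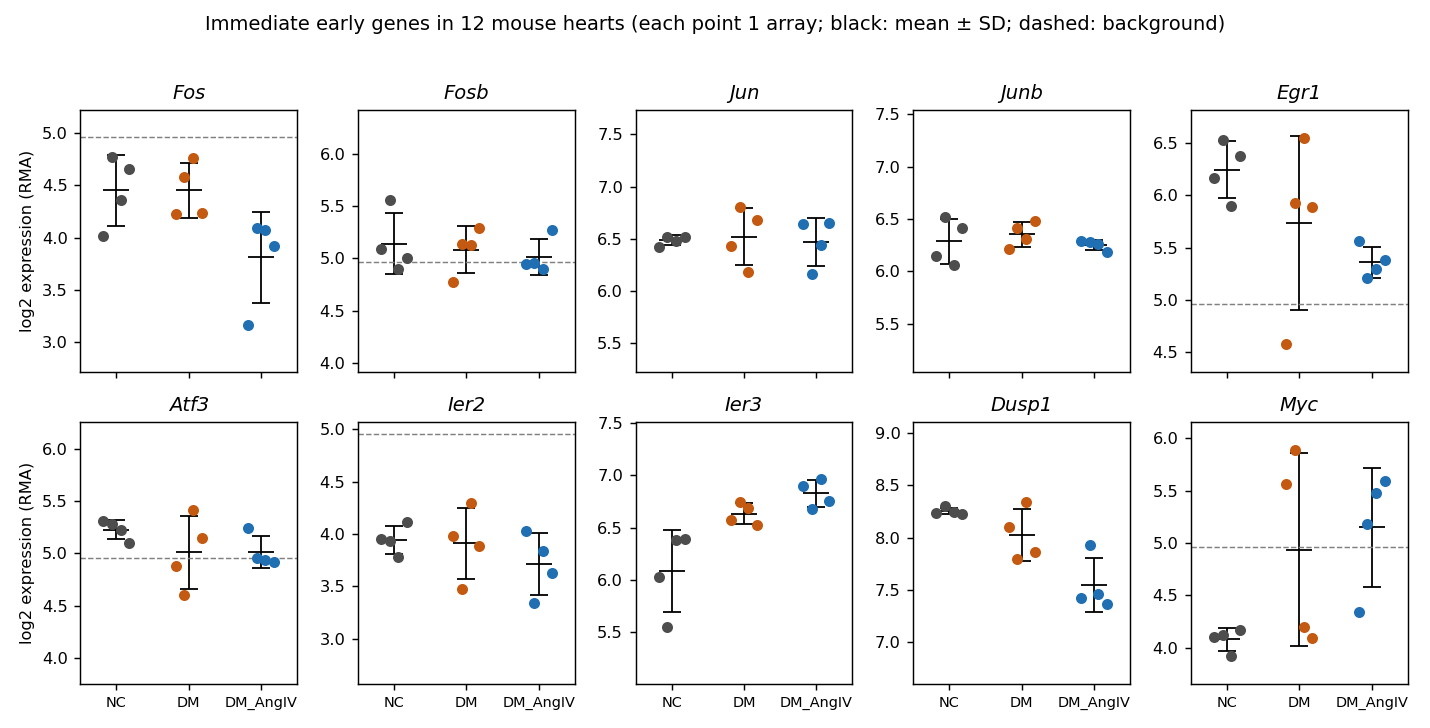
Log2 expression of the 10 immediate early genes in NC, DM and DM_AngIV hearts, with 1 point per array, black bars for the mean ± SD (n = 4) and a dashed line at the background of 4.96; every panel spans the same number of log2 units. The group mean of Dusp1 is lowest and that of Ier3 highest in DM_AngIV, and for both genes DM_AngIV overlaps DM. Myc splits the DM arrays into 2 above and 2 below the background.

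Dusp1, the MAP kinase phosphatase, was lower in the treated diabetic hearts. In the NC hearts it was at 8.24, 8.30, 8.25 and 8.23 in replicates 1 to 4, in DM at 8.10, 7.80, 8.34 and 7.86, and in DM_AngIV at 7.42, 7.93, 7.46 and 7.37. All 4 DM_AngIV arrays lay below all 4 NC arrays, whereas DM overlapped both. From 8.26 ± 0.03 in NC to 7.54 ± 0.26 in DM_AngIV (SD, n = 4), Dusp1 fell by 0.71 ± 0.14 (SE) on the log2 scale, which is 1.64-fold (limma adjusted p = 0.0236). The NC arrays were unusually alike, with an SD that exceeded that of 0.666% of all genes.

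Against DM, the DM_AngIV hearts had a log2 difference of -0.48 for Dusp1 (95% confidence interval -0.78 to -0.18), with an unadjusted limma p of 0.00351 and an adjusted p of 0.513. DM against NC gave -0.23 (-0.53 to 0.07; limma adjusted p = 0.672).

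Ier3 encodes a stress-induced protein of cell survival signalling. In NC it was at 6.03, 5.55, 6.38 and 6.39, in DM at 6.57, 6.75, 6.69 and 6.53, and in DM_AngIV at 6.90, 6.68, 6.97 and 6.76. Both diabetic groups lay wholly above NC and overlapped each other. From 6.09 ± 0.39 in NC to 6.83 ± 0.13 in DM_AngIV (SD, n = 4), Ier3 rose by 0.74 ± 0.16 (SE), or 1.67-fold (limma adjusted p = 0.0358). In DM the mean was 6.63 ± 0.10, a log2 difference of 0.54 from NC (0.21 to 0.88) that did not pass (limma adjusted p = 0.308). DM_AngIV against DM gave 0.19 (-0.14 to 0.53; limma adjusted p = 0.805).

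Both calls lay near the threshold. Over the alternatives run, the limma adjusted p in DM_AngIV against NC lay between 0.0023 and 0.581 for Dusp1. For Ier3 it lay between 0.0072 and 0.738. With the replicate number as a block, both had a limma adjusted p of 0.0519. The call of Dusp1 was lost without any 1 of the 4 NC arrays and without DM_AngIV replicates 1, 3 or 4, with limma adjusted p-values from 0.0517 to 0.0813, while its log2 difference stayed between -0.84 and -0.66 over all arrays left out in turn. The call of Ier3 was lost without NC replicates 1 or 2 or any 1 of the DM_AngIV arrays, with limma adjusted p-values from 0.0616 to 0.118 and differences between 0.56 and 0.84. It was also lost when the DM arrays were left out of the fit (limma adjusted p = 0.0653).

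Markers of cell types were set beside these changes. Atrial muscle was present on some arrays: Myl7, the atrial myosin light chain, was above background in NC replicates 1 and 3 and DM replicates 1, 2 and 4. The mean of the 7 atrial markers lay between 5.02 and 7.97 in NC, 4.65 and 7.58 in DM and 5.00 and 5.29 in DM_AngIV. Without those 5 arrays, which leaves 1 DM array, Dusp1 had -0.72 and Ier3 had 0.86 in DM_AngIV against NC, and neither passed (limma adjusted p = 0.149 and 0.160). Macrophage and monocyte markers had a positive difference in 9 of 9 measured genes in DM against NC and likewise in DM_AngIV against NC, with 0 called. Their array mean lay between 5.59 and 5.77 in NC, 5.63 and 6.70 in DM, and 5.75 and 6.36 in DM_AngIV. None of the 7 neutrophil markers was above background on any array. Of the 7 fibroblast markers measured, 6 had a negative difference in DM_AngIV against NC, and 6 also had one in DM against NC. Col3a1, a fibrillar collagen, was called lower in DM_AngIV against NC (-1.17, limma adjusted p = 0.0128). The array mean of the fibroblast markers lay between 7.35 and 7.78 in NC, 7.22 and 7.47 in DM, and 6.99 and 7.36 in DM_AngIV. The part of these cells in the changes of Dusp1 and Ier3 was not tested.

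Egr1, a zinc finger factor induced by growth and stress signals, was lower in DM_AngIV without passing the test. In NC it was at 6.17, 6.53, 5.90 and 6.38, in DM at 4.58, 5.93, 6.55 and 5.89, and in DM_AngIV at 5.56, 5.21, 5.30 and 5.38. All DM_AngIV values lay below all NC values, and DM spanned both, from below background in replicate 1 to the highest value of the series in replicate 3. The difference of DM_AngIV from NC was -0.88 ± 0.29 (SE; limma adjusted p = 0.166). It passed when the DM arrays were left out of the fit and without DM replicate 1, with limma adjusted p-values of 0.0131 and 0.0182. A further pass, without the arrays with atrial signal, is not read. That fit kept only NC replicates 2 and 4, at 6.53 and 6.38, and 1 DM array. DM against NC gave -0.51 (-1.13 to 0.11; limma adjusted p = 0.649), and -0.12 without DM replicate 1.

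Myc, a driver of cell growth and ribosome production, was below background in NC and uneven in the diabetic hearts. In NC it was at 4.10, 4.12, 3.92 and 4.17, all below background. In DM replicates 1 and 2 it was at 5.56 and 5.89, but replicates 3 and 4 were at 4.20 and 4.09, like the controls. In DM_AngIV replicate 1 was at 4.34, and replicates 2, 3 and 4 at 5.18, 5.48 and 5.59. So 5 of 8 diabetic hearts and 0 of 4 control hearts were above background. DM_AngIV replicate 1 and the NC arrays, all below background, have no readable order.

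The mean of Myc in DM_AngIV, 5.15 ± 0.56 (SD, n = 4), was at least 1.14-fold above NC, a bound taken against the background (limma adjusted p = 0.163). With the DM arrays left out of the fit the limma adjusted p was 0.0445, and with the mean of the glucocorticoid-induced genes as a covariate it was 0.998. In DM the mean of 4.93 ± 0.92 did not exceed the background, so no fold is given against NC (limma adjusted p = 0.484). The spread of Myc between DM mice was among the widest on the array, since 20 of 19505 genes, itself included, had an SD at least as large. For Egr1 in DM, with an SD of 0.83, that number was 31.

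**Figure D2:**
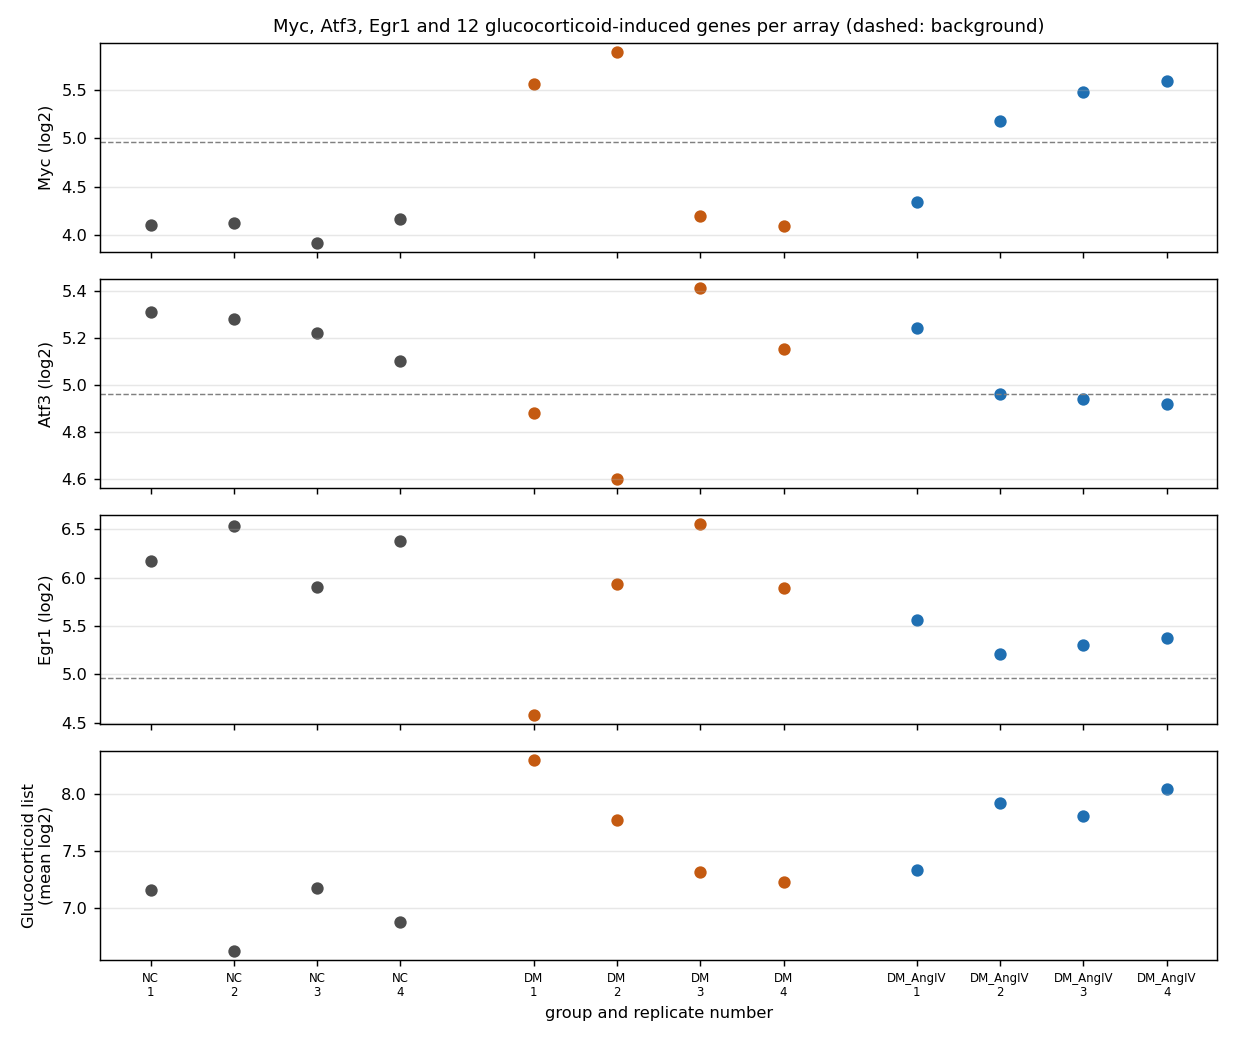
Log2 expression of Myc, Atf3 and Egr1 and the mean log2 expression of 12 glucocorticoid-induced genes on each of the 12 arrays, by group and replicate number; the dashed line is the background of 4.96. The 5 arrays with Myc above background have the lowest Atf3 values and the highest glucocorticoid means.

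Atf3, a stress-induced zipper protein that often represses its targets, was low where Myc was high, array by array. In the 5 arrays with Myc above background Atf3 lay between 4.60 and 4.96, and in the other 7 arrays between 5.10 and 5.41. The mean of the glucocorticoid-induced genes lay between 7.78 and 8.30 in the same 5 arrays and between 6.62 and 7.33 in the other 7. These ranges do not overlap, within DM or over all arrays. Within DM, only 2 of 4 arrays had Myc above background. How many of all genes separate under the same split was not counted, so the separation is a description only. Arrays were put side by side here after their values were seen, Myc values fell into separate clusters and Atf3 values were close to background, so no test and no pooled correlation is given.

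By group, the mean of Atf3 was 5.23 ± 0.09 for NC, 5.01 ± 0.35 for DM and 5.02 ± 0.15 for DM_AngIV (SD, n = 4). Its differences did not pass, with -0.22 in DM against NC (-0.53 to 0.10), 0.01 in DM_AngIV against DM (-0.31 to 0.32) and -0.21 in DM_AngIV against NC (-0.53 to 0.10; limma adjusted p = 0.721, 0.996 and 0.555). The split between arrays that the single values show does not appear in the group means.

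The AP-1 subunits Jun and Junb, which pair with Fos proteins, were above the background of 4.96 on all arrays and passed in no comparison. Above the stricter limit of 6.19, Jun was found on 4 of 4 NC, 3 of 4 DM and 3 of 4 DM_AngIV arrays and Junb on 2, 4 and 3 of 4. Jun lay between 6.42 and 6.52 in NC, between 6.18 and 6.80 in DM and between 6.16 and 6.65 in DM_AngIV. Its differences were 0.03 in DM against NC (-0.27 to 0.33), -0.05 in DM_AngIV against DM (-0.35 to 0.25) and -0.02 in DM_AngIV against NC (-0.32 to 0.28). Junb lay between 6.06 and 6.52 in NC, 6.21 and 6.48 in DM, and 6.18 and 6.29 in DM_AngIV, with differences of 0.07 (-0.18 to 0.31), -0.10 (-0.35 to 0.14) and -0.03 (-0.28 to 0.21) in the same order. For both genes the groups overlapped in each comparison and the smallest limma adjusted p was 0.868.

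Fosb, Fos and Ier2 were near or below background. Fosb, a close relative of Fos, was above background on 3 of 4 NC, 3 of 4 DM and 1 of 4 DM_AngIV arrays. It lay between 4.77 and 5.56 on all arrays, at group means of 5.14, 5.08 and 5.02 in NC, DM and DM_AngIV, and its groups overlapped in each comparison (smallest limma adjusted p = 0.781). Fos was below background on every array: it was at 4.02, 4.77, 4.36 and 4.66 in NC, at 4.23, 4.58, 4.76 and 4.24 in DM, and at 3.17, 4.09, 4.07 and 3.92 in DM_AngIV. The listed values of Fos were lower on all DM_AngIV arrays than on all DM arrays (limma adjusted p = 0.600), but as all are below background their order cannot be read as a difference. Ier2, a nuclear protein induced by growth factors, was between 3.34 and 4.30 on all arrays, also below background. No fold is given for Fos or Ier2.

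**Figure D3:**
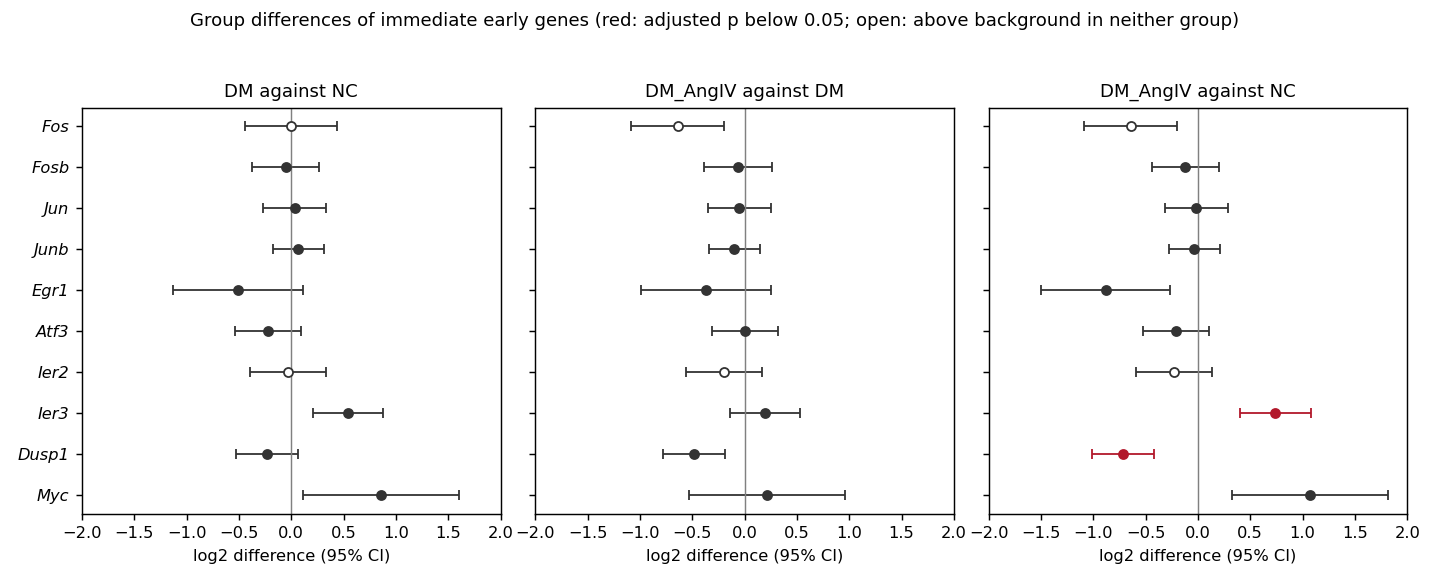
Log2 differences of the 10 genes in the 3 comparisons, as points with 95% confidence intervals from the limma fit; red marks an adjusted p below 0.05 and open points a gene above background in neither group. Dusp1 (-0.71) and Ier3 (0.74) in DM_AngIV against NC are the 2 red points, and the intervals of Jun, Junb, Fosb and Atf3 span 0 in all 3 panels.

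Counts of members were read beside those of the whole array. In DM_AngIV against NC, limma called 2 of 10 members, where it called 1.02% of all genes, 0.728% higher and 0.287% lower. There 4 of 10 members did not overlap between the groups, Ier3 and Myc higher and Dusp1 and Egr1 lower, with Myc counted through values below background, where 9.83% of all genes did not overlap, 5.63% higher and 4.20% lower. In DM against NC, limma called 0 of 10 members and 0.0154% of all genes, 0.00% higher. Only Ier3 of the members did not overlap there, with 4.54% of all genes, 2.45% higher and 2.09% lower. In DM_AngIV against DM, limma called 0 of 10 members and 0.00% of all genes. Only Fos of the members, below background throughout, did not overlap there, with 5.01% of all genes, 2.81% higher and 2.20% lower. Taking the comparison of DM with NC first, then DM_AngIV with DM, then DM_AngIV with NC, there were 2, 2 and 5 members at an unadjusted limma p below 0.05, where 8.95%, 7.48% and 14.6% of all genes had one. Median log2 differences of the members were -0.02, -0.08 and -0.17, with all genes at -0.0010, -0.00071 and -0.0070.

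Other genes of the immediate early programme were read from lists, in which 0 genes were called outside the comparison of DM_AngIV with NC. Of 14 other induced transcription factors, 11 of them above background on at least 1 array, 0 passed in any comparison (limma), with medians of -0.02, -0.12 and -0.11 in the same order. In DM_AngIV against NC, 11 of the 14 had a negative difference. Klf10, a zinc finger factor induced by TGF-beta, was at 5.86 in NC, 6.57 in DM and 5.78 in DM_AngIV (limma adjusted p = 0.427 in DM against NC and 0.600 in DM_AngIV against DM). The orphan nuclear receptor Nr4a3 was at 6.08, 5.31 and 4.65, with SDs of 0.70, 1.08 and 1.09.

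Among 21 feedback and RNA decay genes 0 passed, with medians of 0.08, -0.04 and 0.10. Dusp4, a phosphatase of the same family as Dusp1, was below background on all NC arrays, at 4.12, 3.84, 3.90 and 3.79, and at 4.23, 5.15, 5.34 and 6.42 on the DM_AngIV arrays, the first of them also below background. Its mean was 3.91 ± 0.15 for NC, 4.27 ± 0.59 for DM and 5.29 ± 0.90 for DM_AngIV (SD, n = 4; limma adjusted p = 0.0752 in DM_AngIV against NC). Btg2, an antiproliferative gene, was at 6.26, 5.97 and 5.68, with DM_AngIV wholly below NC (limma adjusted p = 0.0761). Of 12 other AP-1 and zipper partners 10 were measured and 0 passed: Jund was at 7.29, 7.14 and 7.01, and the means of Maff, at 4.23, 4.64 and 4.69, were below background. Of 14 signalling and secreted genes 0 passed. The survival gene Mcl1 and the growth regulator Phlda1 had differences of 0.32 and 0.51 in DM_AngIV against NC (limma adjusted p = 0.142 and 0.233), without overlap. Between these groups 9.83% of all genes did not overlap, 5.63% higher and 4.20% lower.

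Upstream, 1 of 13 measured kinases and factors, of 16 listed, was called. In DM_AngIV against NC limma called 1.02% of all genes, 0.728% higher and 0.287% lower. Mrtfb, a cofactor of the serum response factor that acts at immediate early promoters, rose by 0.66 in DM_AngIV against NC, from 5.66 ± 0.20 to 6.32 ± 0.08 (SD, n = 4; limma adjusted p = 0.0394). The kinase gene Map2k1 had 0.22 (limma adjusted p = 0.395). Of the 8 partners and antagonists of Myc, 7 had a positive difference in DM against NC, with a median of 0.28 and 0 passing. The median in DM_AngIV against DM was 0.09. In DM_AngIV against NC 7 of the 8 were also positive, with a median of 0.29, and 1 passed. Mxd4, which competes with Myc for its partner Max, rose by 0.54, from 6.79 ± 0.05 to 7.33 ± 0.15 (SD, n = 4; limma adjusted p = 0.0454). Mxi1, another antagonist, was at 7.03, 7.42 and 7.59 in NC, DM and DM_AngIV (limma adjusted p = 0.0920 in DM_AngIV against NC).

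Lists of genes that glucocorticoids or tissue stress can induce stood beside these values, and what moved them here was not tested. The 12 glucocorticoid-induced genes had medians of 0.54, 0.03 and 0.65 in the 3 comparisons. In DM_AngIV against NC, 10 of them had a positive difference and 2 a negative one. In DM_AngIV against NC limma called 5 of the 12 higher and 0 lower, where it called 0.728% of all genes higher and 0.287% lower. Fkbp5, a cochaperone of the glucocorticoid receptor, rose by 2.55 in DM_AngIV against NC (limma adjusted p = 0.0192) and Zbtb16, a zinc finger factor, by 2.17 (0.00317). Mt1, Mt2 and Sult1a1 rose by 0.70, 1.21 and 1.22 (limma adjusted p = 0.0236, 0.0264 and 0.0466). With the mean of this list as a covariate, in DM_AngIV against NC Egr1 went from -0.88 to 0.04, Dusp1 from -0.71 to -0.74 and Ier3 from 0.74 to 0.64, and no member passed (limma adjusted p = 0.581 for Dusp1 and 0.738 for Ier3). The fitted coefficient of Myc, which is no fold because NC is below background, went from 1.07 to 0.02. The list itself differs between the groups, so its share and that of the group cannot be told apart.

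Heat shock genes, which tissue stress induces together with immediate early genes, had a negative difference in 9 of 9 measured in DM_AngIV against NC. The median there was -0.20, with 0 called. In DM against NC 8 of 9 were also negative, with a median of -0.15. In DM_AngIV against DM 5 were negative and 4 positive, with a median of -0.008. Hspb1, a small heat shock protein, was at 8.09, 8.13 and 7.72 in the 3 groups and Hsph1 at 6.25, 5.67 and 5.62 (limma adjusted p = 0.0798 and 0.163 in DM_AngIV against NC). Their part in the values of Dusp1 and Egr1 was not tested.

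**Figure D4:**
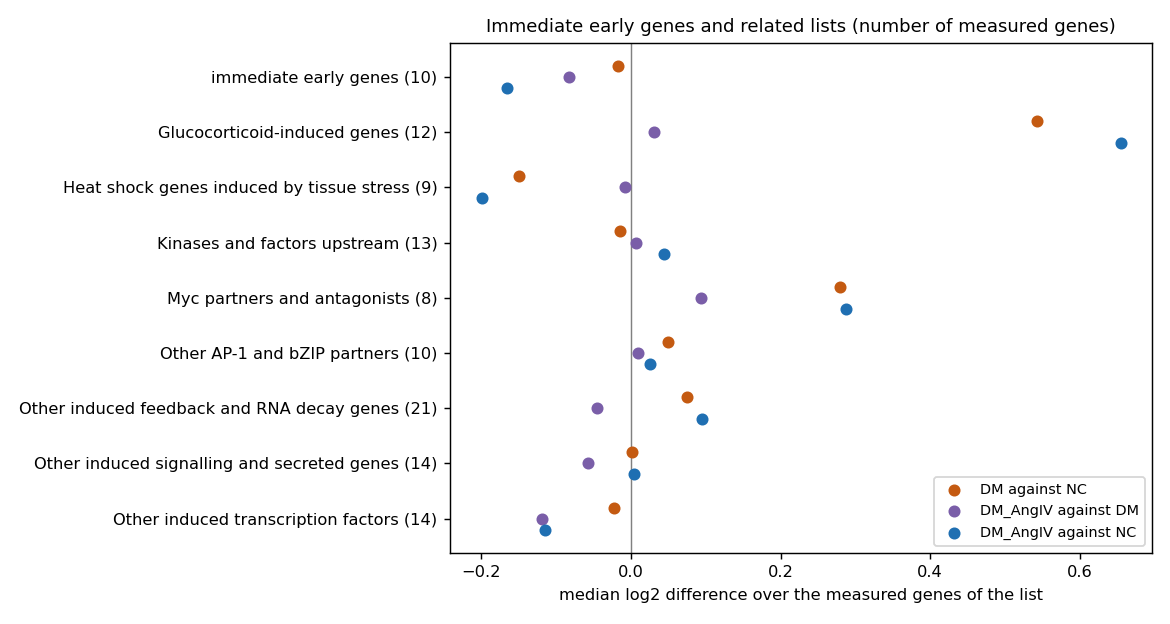
Median log2 difference of the immediate early genes and 8 related lists in the 3 comparisons, 1 point per comparison, with the number of measured genes in brackets. The glucocorticoid-induced list stands at 0.54 and 0.65 in the comparisons with NC, while the immediate early genes lie at -0.02 and -0.17. The medians of the immediate early genes include Fos and Ier2, which were below background on every array.

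Whether members varied together between mice was asked over the 12 arrays for 36 pairs, leaving out Myc because its arrays fall into clusters. Of these, 15 pairs hold Fos or Ier2, which were below background on every array. None of the 36 pairs passed after adjustment over the pairs, by Pearson or Spearman correlation with a permutation test, and 5 and 8 had an unadjusted p below 0.05. Ier3 and Dusp1 had r = -0.69 and rho = -0.75 (permutation p = 0.00913 and 0.00721, adjusted p = 0.164 and 0.185), with r = -0.79 without the 2 arrays farthest from the median of Ier3. On deviations from the group means that r was -0.21. Without Fos and Ier2, 0 of 21 pairs passed on the values themselves (smallest adjusted permutation p = 0.192 for r and 0.151 for rho). Of these pairs, 3 and 5 had an unadjusted permutation p below 0.05, and the median r was 0.09, between -0.69 and 0.61.

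Likeness of pattern was described by Pearson's r over the 12 arrays among genes above background on at least 6 arrays. To the mean of the 8 members above background, Trmt112, Cyren, Rpl8, Bri3, Zfp518b and Pip5k1a were the most alike of 8457 genes, with r between 0.81 and 0.86. Chosen after their values were seen, Dusp1, Ier3, Egr1 and Myc were followed singly. For Myc, whose arrays fall into clusters, no r is given. Ercc3 and Nudt19 were most like Egr1, with r = 0.93 and 0.92. The genes most like Dusp1 were Fitm2, a lipid droplet protein, and Phkg1, a subunit of phosphorylase kinase, with r = 0.91 and 0.90. Those most like Ier3 were Erlec1, Gpcpd1 and Ankrd11, with r = 0.95, 0.94 and 0.94.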

How the data were processed

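The authors deposited 1 table of log2 expression values, made by RMA per the submitters' processing notes; the sources used here do not give its software version. Of 29129 probe sets, 19572 carried 1 gene symbol in GEO's platform annotation; all matched the GRCm38.p6 gene table by gene ID; the probe set of highest mean was kept for 55 symbols with several, leaving 19505 genes. The number of arrays limits the precision.

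Group contrasts were fitted with limma 3.58.1 (lmFit, eBayes; R 4.3.3) over all 12 arrays, two-sided, with Benjamini-Hochberg adjustment over all genes. The fit was tested on simulated data. Permutation tests used 100000 resamples. A gene at or below 4.96 on all 4 arrays of a group is not above background there.

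The members, lists and tests were chosen with earlier results of these data known. All 10 members were named whatever their values, then called list members and, in each list, the 2 genes above background with the smallest p of the 3-group test. The labels do not say how the mice relate, and p-values measure the spread between these mice. Alternatives covered the arrays, replicate block, dim genes, probe sets, scaling, weights, prior, threshold and atrial tissue. The glucocorticoid covariate, the antigenomic background and the pairs without Fos and Ier2 were added after seeing the data. Figures were drawn with matplotlib 3.10.9.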

Additional observations from a re-analysis of the deposited data

Results flagged for a closer look

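In 3 of 30 groups of 4 arrays, 1 array stood far from the other 3, with a gap that took more than Dixon's critical share of the range; chance gives about 1 in 20. All were DM_AngIV arrays. Dusp1 was at 7.93 in replicate 2, where the other 3 lay between 7.37 and 7.46, and without it the fall against NC was larger (-0.84; limma adjusted p = 0.0131). Atf3 was at 5.24 in replicate 1, the DM_AngIV array with Myc below background. Fosb was at 5.27 in replicate 4.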

How the results depend on the processing

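With 4 arrays a group, values near background and calls near the threshold limit these results. The count of 2 called members in DM_AngIV against NC was 0 with a replicate block, 1 when atrial markers entered as a covariate, 1 without the arrays with atrial signal, 0 with the glucocorticoid covariate and 0 to 3 with each array left out in turn. With the block, Dusp1 and Ier3 each had a limma adjusted p of 0.0519; it changed no other call of a member. Arrays of the same number did not pair (r of deviations from -0.098 to 0.17, and 2 of 12 arrays most like their own number). In the other comparisons 0 members passed under all alternatives run. The median of the members was 0.13 in DM against NC and 0.038 in DM_AngIV against NC with the glucocorticoid covariate, and -0.25 in DM_AngIV against DM without the arrays with atrial signal. Of 36 pairs, 1 passed on deviations from group means, Jun with Dusp1, by a permutation that shuffled deviations between groups. As the groups differ in spread, that shuffle can give p-values that are too small, and no conclusion is drawn from this pass. Without the 2 farthest arrays 1 passed, Egr1 with Dusp1 (r = 0.92, adjusted permutation p = 0.0101). Over all 12 arrays the r of Egr1 with Dusp1 was 0.53 (adjusted permutation p = 0.279). On deviations from group means it was 0.03, so the pass is not read as joint variation between mice of a group. Leaving out Fos and Ier2 was added after seeing the data. Of the 21 pairs then left, 0 passed on the values themselves and 1 on deviations, by the same shuffle between groups and with the same limit.

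Signs changed for differences that were not called, and the cause was not tested. With the glucocorticoid covariate, DM against NC gave Fosb 0.18, Egr1 0.27, Atf3 0.042 and, with NC below background, Myc -0.036, and DM_AngIV against NC gave Fosb 0.15, Jun 0.039, Junb 0.18, Egr1 0.036 and Atf3 0.10. Without the arrays with atrial signal, DM against NC gave Jun -0.35, Junb -0.16, Egr1 0.10, Atf3 0.22 and Dusp1 0.070, and DM_AngIV against DM gave Jun 0.29 and Atf3 -0.39. The atrial covariate gave Jun 0.041 and Atf3 -0.13 in DM_AngIV against DM and Jun 0.057 in DM_AngIV against NC. Atf3 in DM_AngIV against DM was -0.021 with array weights and -0.00063 after quantile normalization. With each array left out, ranges that crossed 0 were, in DM against NC, Fosb -0.13 to 0.087, Jun -0.059 to 0.15 and Junb -0.010 to 0.14; in DM_AngIV against DM, Fosb -0.17 to 0.0048, Jun -0.16 to 0.054, Atf3 -0.13 to 0.14 and Myc -0.065 to 0.53; and in DM_AngIV against NC, Fosb -0.20 to 0.021, Jun -0.076 to 0.087 and Junb -0.11 to 0.044.

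Over all genes, the 198 called in DM_AngIV against NC were 115 with the block, 567 without dim genes, 514 with a trended robust prior, 509 at a threshold of 0.1, 50 without the arrays with atrial signal, 1 with the glucocorticoid covariate and 81 to 302 with arrays left out. The 3 in DM against NC were 20 without dim genes, 28 with the prior, 17 at 0.1, 0 without the arrays with atrial signal and up to 30 with arrays left out (without DM replicate 4), and the 0 in DM_AngIV against DM were up to 5 (without DM_AngIV replicate 2).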

Other observations

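Jun and Dusp1 ran against each other within the diabetic groups. In DM, Jun was at 6.43, 6.80, 6.18 and 6.68 where Dusp1 was at 8.10, 7.80, 8.34 and 7.86, and in DM_AngIV Jun was at 6.64, 6.16, 6.44 and 6.65 where Dusp1 was at 7.42, 7.93, 7.46 and 7.37. In each of these groups the array with the highest Dusp1 had the lowest Jun. The NC hearts did not show this: Jun was at 6.42, 6.52, 6.48 and 6.52 where Dusp1 was at 8.24, 8.30, 8.25 and 8.23. There the lowest Jun was in replicate 1 and the highest Dusp1 in replicate 2. On deviations from the group means over 12 arrays r was -0.95 and rho -0.90. Without the 2 arrays farthest from the median of Jun that r was -0.87. The permutation run on deviations shuffled them between groups of unequal spread. Jun had an SD of 0.05 among the controls, against 0.28 for DM and 0.23 for the treated mice. Such a shuffle can give p-values that are too small, so none is given for the deviations. On the values themselves r was -0.44 (permutation p = 0.156). This pair was picked after all 36 pairs were seen.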
